A study of Mus musculus with 6 samples.

Results

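The neural tube dorsoventral patterning factors are 10 transcription factor genes, named here from ventral to dorsal as *Nkx2-2*, *Olig2*, *Nkx6-1*, *Nkx6-2*, *Dbx1*, *Dbx2*, *Pax6*, *Irx3*, *Pax3* and *Pax7*. Their rows were taken by symbol and not by value, although the set was chosen with earlier results of these data known. All 10 were found among the 24207 loci of the deposited RNA-seq table, each at 1 locus. RNA came from whole male mouse embryos at E9.5, 3 of genotype Smchd1+/+ (wildtype) and 3 of genotype Smchd1MommeD1/MommeD1 (mutant), the latter homozygous for a chemically induced mutation of *Smchd1*, which encodes a chromatin protein of X inactivation. The labels give the strain background of both genotypes as C57Bl6/J x FVB/n, whereas the text of the study describes a backcross to a different strain for the sequenced embryos. The table holds 1 value per genotype, pooled by the authors over the 3 embryos, in FPKM (fragments divided by transcript length and by library size). Hence no spread between embryos could be computed, no difference below was tested, and the depth of the libraries is unknown.

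In the neural tube, Sonic hedgehog from the notochord and floor plate and BMP and Wnt signals from the roof plate give progenitor cells their dorsoventral position. Class II factors (*Nkx2-2*, *Olig2*, *Nkx6-1*, *Nkx6-2*) are induced by Sonic hedgehog on the ventral side, and class I factors (*Pax7*, *Irx3*, *Pax6*, *Dbx1*, *Dbx2*) are repressed by it. Factors of the opposite classes repress each other in pairs, which sharpens the borders between progenitor domains, and each domain gives rise to its own type of neuron. *Pax3* and *Pax7* mark the dorsal side of the tube. Several of these genes also act outside it, *Pax3* and *Pax7* in the dermomyotome and neural crest, *Pax6* in the eye, and *Nkx2-2* and *Nkx6-1* in the pancreas.

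Reads of 100 bp have to be told apart between the related genes among these factors, so the coding sequences of the paralogs were compared in GENCODE M21 on mm10. The closest pair of 100-base coding windows, each 1 read length, is shown for the 3 pairs that lie within the set, 5′ to 3′ on the coding strand, with the bases that differ between the paralogs in capitals.
*Pax3*, chromosome 1, 78195465 to 78196742, minus strand, exons 1 and 2: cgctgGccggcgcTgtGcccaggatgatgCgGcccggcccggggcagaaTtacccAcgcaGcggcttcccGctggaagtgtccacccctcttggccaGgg
*Pax7*, chromosome 4, 139830352 to 139832904, minus strand, exons 1 and 2: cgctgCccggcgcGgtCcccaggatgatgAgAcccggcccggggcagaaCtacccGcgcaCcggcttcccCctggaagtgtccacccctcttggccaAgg
*Nkx6-1*, chromosome 5, 101661851 to 101661950, minus strand, exon 2: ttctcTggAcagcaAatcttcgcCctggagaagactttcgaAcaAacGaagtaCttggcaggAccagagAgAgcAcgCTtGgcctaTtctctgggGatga
*Nkx6-2*, chromosome 7, 139581898 to 139581997, minus strand, exon 2: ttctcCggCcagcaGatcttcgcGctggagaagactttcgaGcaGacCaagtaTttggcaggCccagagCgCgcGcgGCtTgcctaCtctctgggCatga
*Dbx1*, chromosome 7, 49633529 to 49633628, minus strand, exon 3: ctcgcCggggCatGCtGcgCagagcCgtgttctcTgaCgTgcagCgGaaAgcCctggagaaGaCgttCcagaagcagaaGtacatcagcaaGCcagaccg
*Dbx2*, chromosome 15, 95632318 to 95632417, minus strand, exon 3: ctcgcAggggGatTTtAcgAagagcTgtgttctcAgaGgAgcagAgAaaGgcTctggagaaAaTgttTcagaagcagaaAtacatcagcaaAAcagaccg

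Even in these closest windows, 10 of 100 bases differed between *Pax3* and *Pax7*, 17 between *Nkx6-1* and *Nkx6-2* and 20 between *Dbx1* and *Dbx2*. The longest identical coding runs in these pairs were 26, 17 and 14 bases. Of the other members, *Pax6* was compared with no relative, and 3 were compared with relatives outside the set, with 14 differences between *Nkx2-2* and *Nkx2-9*, 8 between *Olig2* and *Olig3*, and 3 between *Irx3* and *Irx5*. For *Irx3* and *Irx5*, whose longest identical run was 50 bases, reads from the shared stretch are the hardest to assign. Untranslated parts of the transcripts were not compared.

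The table was first checked by the mutated gene. *Smchd1* was at 2.12 FPKM in mutant against 34.0 FPKM in wildtype embryos, a log2 ratio of -3.94. All log2 ratios are for mutant over wildtype with 0.1 FPKM added to each value. Across the 12463 loci that averaged 1 FPKM or more over both genotypes, the median log2 ratio was -0.0076.

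Each of the 10 patterning factors differed by less than 1.5-fold in pooled level between the 2 genotypes, as did most loci that averaged 1 FPKM or more. Of the 10 factors, 9 averaged 1 FPKM or more, and 0 of these 9 were 1.5-fold higher or lower in mutant embryos. Of all loci at such levels, 3.51% were at least 1.5-fold higher and 1.47% at least 1.5-fold lower. Their log2 ratios ran from -0.17 for *Nkx6-2* to 0.53 for *Pax7*, with a median of 0.16. *Dbx2*, the remaining factor, was below that mean. At a lower threshold, *Dbx1* and *Pax7* were at least 25% higher and none of the 9 was at least 20% lower, where 8.84% of all such loci were that much higher and 4.98% that much lower. With 9 genes, counts of 0 and 2 are small numbers to read against these shares, and the count of 0 is near its share.

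The order of the 10 levels was the same in both genotypes. *Irx3* had the highest level and *Dbx2* the lowest, 32.5 times apart in mutant and 37.6 times apart in wildtype embryos. Between them followed, from high to low, *Pax6*, *Nkx6-1*, *Pax3*, *Dbx1*, *Olig2*, *Nkx6-2*, *Pax7* and *Nkx2-2*. *Nkx6-1*, *Pax3* and *Dbx1* lay near each other in mutant embryos, at 11.5, 10.8 and 10.5 FPKM, and without values per embryo their order there cannot be set against an error.

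**Figure D1:**
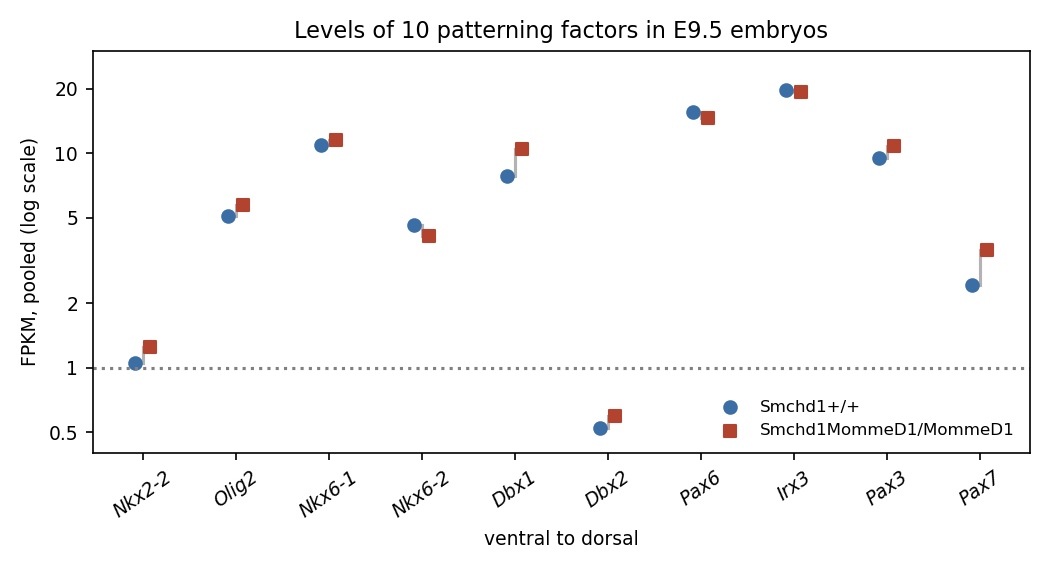
FPKM of the 10 factors, pooled over 3 embryos of each genotype, on a log axis, with the factors placed from ventral to dorsal. Circles stand for wildtype and squares for mutant embryos, grey lines join the values of 1 gene, and the dotted line marks 1 FPKM. The symbols of each gene lie close together, farthest apart for *Pax7* (3.53 against 2.42 FPKM) and *Dbx1* (10.5 against 7.85 FPKM).

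To set a ratio against something in the absence of replicates, each factor was placed among the loci whose mean FPKM lay within 2-fold of its own. The central 90% of their log2 ratios covers noise and real differences alike, and is not an error of the factor. By this measure 9 of the 10 factors lay inside the central 90%, *Dbx1* lay above it and none lay below. By construction 90% of the compared loci lie inside, so this count sets the factors apart from other loci in no way.

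Among the class II factors, *Nkx2-2* marks the p3 domain next to the floor plate, from which V3 interneurons arise. It lies on chromosome 2 of GRCm38, the assembly of mm10, from 147176485 to 147195434 in RefSeq, which also gives the positions below. It was at 1.252 FPKM in mutant against 1.05 FPKM in wildtype embryos, a log2 ratio of 0.24. Among 1573 loci of like FPKM, the central 90% ran from -0.48 to 0.91, so a difference of this size was common at such a low level. *Olig2*, a bHLH factor that directs motor neuron progenitors, was at 5.71 and 5.09 FPKM, a log2 ratio of 0.16. It lies on chromosome 16 from 91225550 to 91228677, and no other gene of the table shares its locus.

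*Nkx6-1*, a homeodomain factor of the p3, motor neuron and p2 domains, lies on chromosome 5 from 101659184 to 101664711. It was the most abundant class II factor, with 11.5 FPKM in mutant against 10.9 FPKM in wildtype embryos, a log2 ratio of 0.08. Its paralog *Nkx6-2*, which also acts in ventral interneuron domains and lies on chromosome 7 from 139579376 to 139582797, was at 4.11 and 4.65 FPKM. That log2 ratio of -0.17 was the lowest of the 10 and the only negative one among class II factors. Of 3892 loci of like FPKM, 17.8% had a lower ratio.

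Among the class I factors, *Dbx1* marks the p0 domain in the middle of the tube, the source of V0 interneurons. It lies on chromosome 7 from 49631499 to 49636835, with no other gene at its locus. It was at 10.5 FPKM in mutant against 7.85 FPKM in wildtype embryos, a log2 ratio of 0.41. Only 4.41% of 4672 loci of like FPKM had a ratio at least as high, and the central 90% of these ended at 0.39. *Dbx2*, which covers a wider domain around that of *Dbx1* and lies on chromosome 15 from 95623563 to 95654771, was at 0.594 and 0.522 FPKM, a log2 ratio of 0.16 at a level where the central 90% of loci ran from -0.70 to 1.14.

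*Pax6*, a paired-box and homeodomain factor of most progenitors between the ventral and dorsal ends, lies on chromosome 2 from 105668896 to 105698410. It was at 14.5 FPKM in mutant against 15.6 FPKM in wildtype embryos, a log2 ratio of -0.10. *Irx3*, an Iroquois homeodomain factor that borders the motor neuron domain on its dorsal side, lies on chromosome 8 from 91798511 to 91801654. It was at 19.3 and 19.7 FPKM, a log2 ratio of -0.03. This was the smallest difference of the 10, with 47.3% of 4386 loci of like FPKM below it. The *Irx3* paralog *Irx5* was at 8.72 and 8.48 FPKM, a log2 ratio of 0.04.

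*Pax7* lies on chromosome 4 from 139737059 to 139833530 and marks dorsal progenitors. Its 3.53 FPKM in mutant against 2.42 FPKM in wildtype embryos gave the highest log2 ratio of the set, 0.53. Of 3339 loci of like FPKM, 7.34% had a ratio at least as high, and the central 90% reached 0.67, so *Pax7* stayed within it. *Pax3*, which begins earlier in the same dorsal cells and lies on chromosome 1 from 78101267 to 78197136, was at 10.8 and 9.52 FPKM, a log2 ratio of 0.18. Both dorsal Pax genes were higher in these values, *Pax7* by more, although *Pax3* was lower relative to the general neural progenitor genes (-0.24).

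**Figure D2:**
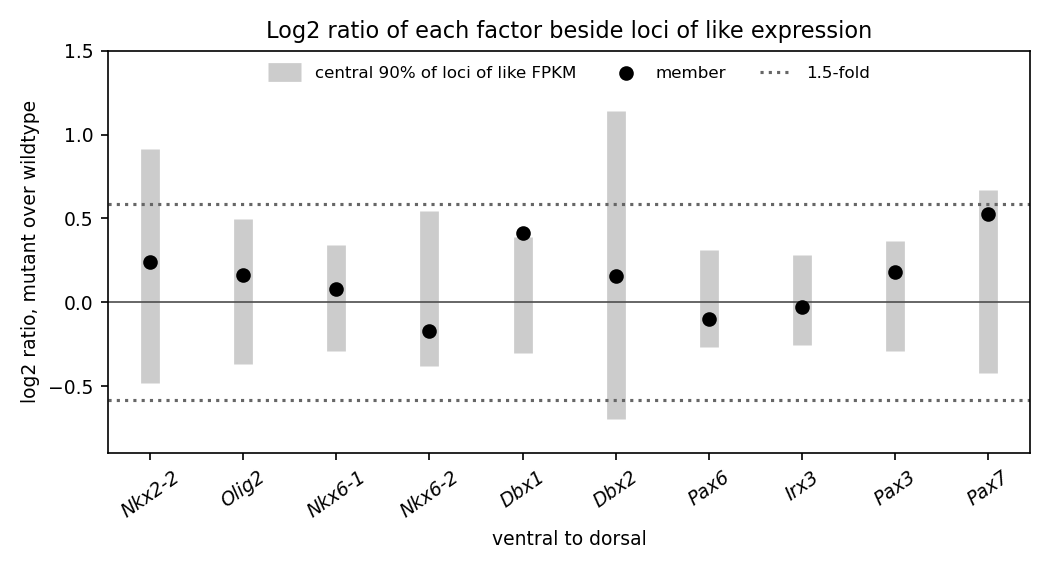
Log2 ratio of mutant over wildtype embryos for each factor from ventral to dorsal (black points), beside the central 90% of log2 ratios of loci within 2-fold of its mean FPKM (grey bars), with dotted lines at 1.5-fold. *Dbx1* at 0.41 is the 1 point outside its bar, and no point reaches a dotted line.

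Of the 10 factors, 3 lie at loci that overlap those of other genes of the table. These loci can be far wider than the gene, as for *Pax6* with a locus of 368471 bp. The libraries were nondirectional, so reads from any overlapping exons of opposite strands cannot be told apart. Whether exons of these genes overlap was not tested. *Nkx2-2* shares its locus with *Nkx2-2as*, at 0.0776 FPKM in mutant against 0.10 FPKM in wildtype embryos. *Pax6* shares its locus with *Pax6os1*, at 0.0493 and 0.0771 FPKM, and with *Elp4*, a subunit of the Elongator complex, at 19.1 and 21.0 FPKM. *Nkx6-2* shares its locus with the phosphatase gene *Inpp5a*, at 14.3 and 13.8 FPKM. The antisense transcripts were thus far below the factors, whereas *Elp4* and *Inpp5a* were above them, with log2 ratios of -0.14 and 0.05.

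The shares of the classes in whole-embryo RNA were similar in both genotypes, which is not a measure of their balance within the neural tube. Class I factors held 59.2% of the summed FPKM of the 10 in mutant and 59.6% in wildtype embryos, and class II factors 27.6% and 28.1%. Most of the class I share came from *Irx3* and *Pax6*. *Pax3*, which is in neither class, held 13.2% and 12.3%. Of the 4 class I factors that averaged 1 FPKM or more, 2 were higher and 2 lower, with a mean log2 ratio of 0.20. Of the 4 class II factors, 3 were higher and 1 lower, with a mean of 0.08. The difference between the classes was 0.13. *Pax7* and *Dbx1* raised the class I mean, since *Pax6* and *Irx3* lay below 0, and *Nkx6-2* (-0.17) lowered the class II mean.

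Shares within the set do not depend on how the genotypes were scaled. The largest shift was that of *Dbx1*, from 10.2% of the summed FPKM in wildtype to 12.8% in mutant embryos, a difference of 2.66 percentage points. *Pax7* went from 3.14% to 4.31%. *Pax6* went from 20.2% to 17.7% and *Irx3* from 25.4% to 23.6%.

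**Figure D3:**
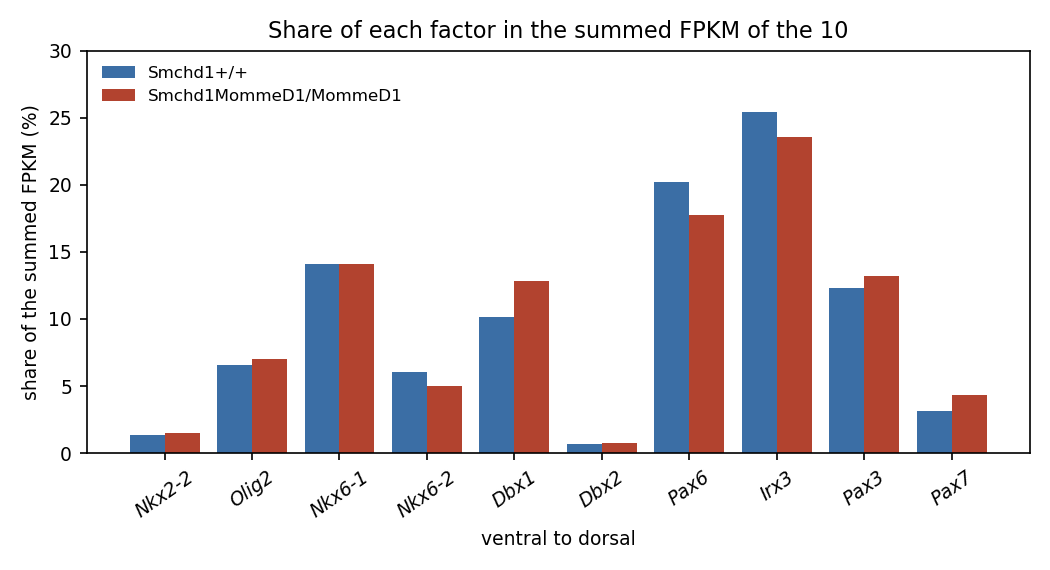
Share of each factor in the summed FPKM of the 10 factors (percent, bars from 0), for wildtype and mutant embryos, from ventral to dorsal. The bars of each gene differ by at most 2.66 percentage points, the value for *Dbx1*, and *Irx3* and *Pax6* are the highest in both genotypes.

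Whole-embryo levels were also compared within the pairs known to repress each other. *Pax6* exceeded its partner *Nkx2-2* by 11.6 times in mutant and 14.9 times in wildtype embryos. *Irx3* exceeded *Olig2* by 3.38 times and 3.86 times. *Nkx6-1* exceeded *Dbx2* by 19.4 times and 20.9 times. *Dbx1* exceeded *Nkx6-2* by 2.55 times in mutant and 1.69 times in wildtype embryos, the largest difference among these pairs at -0.60 on the log2 scale for *Nkx6-2* over *Dbx1*. The class II partner was relatively higher in mutant embryos in the first 2 pairs and lower in the others, so the pairs differed in direction. *Pax3* exceeded *Pax7* by 3.06 and 3.93 times.

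Whole embryos were sequenced, so fewer cells of a domain and less RNA per cell cannot be told apart. As one reference for the amount of neural tissue, the general progenitor genes *Sox1*, *Sox2* and *Sox3* had log2 ratios of 0.05, 0.11 and 0.21, with levels of 12.1, 47.1 and 25.1 FPKM in mutant embryos. Relative to their mean log2 ratio of 0.13, *Pax7* was at 0.40, *Dbx1* at 0.29, *Nkx2-2* at 0.11, *Pax3* at 0.06, *Olig2* at 0.04 and *Dbx2* at 0.03. On that scale *Nkx6-1* was at -0.05, *Irx3* at -0.15, *Pax6* at -0.23 and *Nkx6-2* at -0.30. Hence *Nkx6-1* changed sign between the scales, and *Dbx1* was no longer 25% higher. These values depend on the reference, since the 3 Sox genes had the lowest ratios of the 11 general neural progenitor genes, whose median was 0.43. Relative to that median, 1 factor was above 0, *Pax7* at 0.10, and 9 were below. *Dbx1* was then at -0.01, *Nkx2-2* at -0.19, *Pax3* at -0.24, *Olig2* at -0.26 and *Dbx2* at -0.27. *Nkx6-1* was at -0.35, *Irx3* at -0.45, *Pax6* at -0.53 and *Nkx6-2*, the 1 factor past 1.5-fold lower on this scale, at -0.60. Each reference shifts all ratios by the same amount, so the order of the factors stayed, whereas 6 of them differ in sign between the deposited scale and the last one.

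Genes of the signals that position these factors were read on the deposited scale. *Shh*, the ventral signal itself, was at 8.22 FPKM in mutant against 7.59 FPKM in wildtype embryos, a log2 ratio of 0.11. Of 8 floor plate genes, 4 were higher and 4 lower, with a median of 0.01, from *Nkx2-9* (-0.49), a relative of *Nkx2-2*, and *Foxa1* (-0.13) at the lower end to genes such as *Ntn1* (0.13) on the higher side. Of 10 genes of the hedgehog response, 3 were higher and 7 lower, with a median of -0.01. The receptor gene *Ptch1* and the effector *Gli1*, both targets of the pathway, were at -0.23 and -0.20, and *Gli2* and the coreceptor gene *Gas1* at 0.20 and 0.25. On the dorsal side, 6 of 10 roof plate genes were higher and 4 lower, with a median of 0.14, from *Wnt3a* (-0.27) and *Rspo3* (-0.22) to *Gdf7* (0.40) and *Zic1* (0.51). In these 3 lists 0 genes were past 1.5-fold in either direction. Of all loci that averaged 1 FPKM or more, only 3.51% were that much higher and 1.47% that much lower. The genes of these lists were not set against loci of like FPKM. As RNA was of whole embryos, the cells from which their transcripts came were not tested. *Foxa1*, for example, is also in the pancreas and foregut list below.

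Other progenitor factors of the tube reached larger ratios than the 10. Of 10 dorsal progenitor factors, 6 averaged 1 FPKM or more, with a median log2 ratio of 0.44. The proneural bHLH gene *Neurog1* (7.96 against 4.39 FPKM, log2 ratio 0.84) was past 1.5-fold, and *Gbx2* (-0.40) and *Zic2* (-0.05) were lower. Of 9 other ventral or intermediate factors, 6 did so, with a median of 0.29. Here *Prdm12* and *Prdm8* were at 0.75 each, and *Nkx2-9* (-0.49) and *Sp8* (-0.26) were lower. All 11 general neural progenitor genes were higher, with a median of 0.43. *Fabp7* (1.06) and *Pou3f3* (0.82) were past 1.5-fold, and *Sox1* and *Sox2* had the lowest ratios.

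Factors of the neurons that leave each domain were read beside the progenitor factor of that domain. *Sim1*, of the V3 neurons from the *Nkx2-2* domain, was at 1.24 FPKM in mutant against 1.14 FPKM in wildtype embryos, a log2 ratio of 0.11. For motor neurons, which arise from *Olig2* cells, *Mnx1* was at 0.15, *Isl1* at 0.35 and *Isl2* at 0.84, the last at 2.07 and 1.12 FPKM. *En1*, of V1 neurons and also of the midbrain and limb, was at 0.13. *Evx1*, of the V0 neurons from the *Dbx1* domain, was at 1.19 FPKM in mutant against 2.93 FPKM in wildtype embryos, a log2 ratio of -1.23, while *Dbx1* was at 0.41. *Evx1* is also transcribed in the tail bud, and *Mnx1* is also in the pancreas and foregut list below. For none of these neuron factors was the share of each source in the whole embryo tested. Of the 13 ventral neuron factors, 8 averaged 1 FPKM or more, 6 of them higher and 2 (*Evx1* and *Foxd3*, -0.13) lower, with a median of 0.14.

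Dorsal neuron factors varied widely. Of 13, 9 averaged 1 FPKM or more, with a median of 0.21 and 4 past 1.5-fold higher. *Lhx9*, listed here for dI1 neurons, was at 5.55 FPKM in mutant against 2.31 FPKM in wildtype embryos, a log2 ratio of 1.23. *Pou4f1* was at 0.71. As RNA was of whole embryos, the cells from which these transcripts came were not tested. *Pax8* (-0.57) and *Pax2* (-0.14) were lower. General neuron genes stood farthest from the patterning factors. Of the 12 listed, 11 were found by symbol, and 10 of these averaged 1 FPKM or more. All 10 were higher and 9 were past 1.5-fold, with a median of 1.33. They ran from *Gap43* (0.34) and *Elavl4* (0.93) to *Nefm* (1.57) and *Dcx* (1.67).

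**Figure D4:**
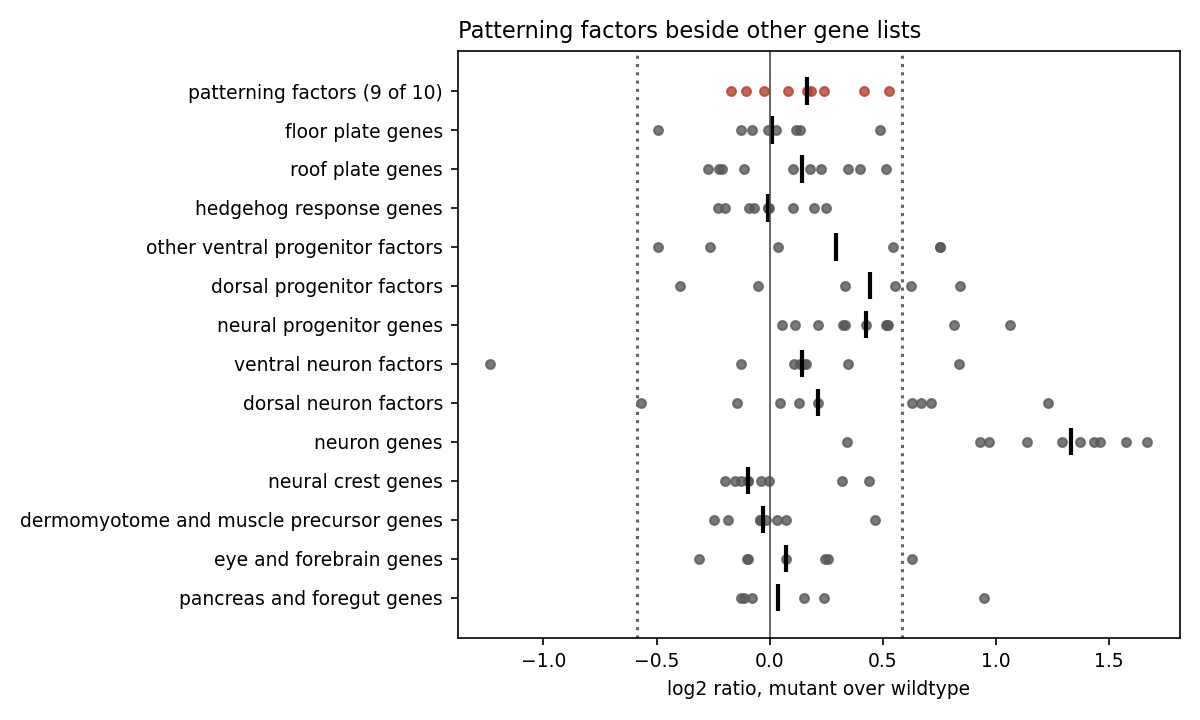
Log2 ratios of mutant over wildtype embryos for single genes that averaged 1 FPKM or more (points), by gene list, with the median of each list (black bar) and dotted lines at 1.5-fold. The patterning factors (red) lie between -0.17 and 0.53, while neuron genes have a median of 1.33 and hedgehog response genes one of -0.01.

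Tissues other than the neural tube that express some of the factors were read by their own markers. Of 8 dermomyotome and muscle precursor genes that averaged 1 FPKM or more, 3 were higher and 5 lower, with a median of -0.03, from *Tcf15* (-0.25) and *Meox1* (-0.18) to *Meox2* (0.07) and *Myf5* (0.46). Of 9 neural crest genes, 2 were higher, *Sox9* (0.32) and *Tfap2b* (0.44), and 7 lower, with a median of -0.10, down to *Ets1* (-0.20). No gene of either list that averaged 1 FPKM or more was past 1.5-fold, and both tissues are sites of *Pax3* and *Pax7*. *Lbx1*, of migrating muscle precursors and also of dorsal interneurons, was below that mean, at 1.21 FPKM in mutant against 0.430 FPKM in wildtype embryos (log2 ratio 1.31). For *Pax6*, 7 of 10 eye and forebrain genes averaged 1 FPKM or more, with a median of 0.07. The lowest were *Six6* (-0.31) and *Rax* (-0.10) and the highest *Emx2* (0.26) and *Lhx2* (0.63). For *Nkx2-2* and *Nkx6-1*, the pancreas master gene *Pdx1* was at 0.0842 FPKM in mutant against 0.0586 FPKM in wildtype embryos, far below either factor. The 6 pancreas and foregut genes that averaged 1 FPKM or more had a median of 0.04, between *Foxa1* (-0.13) and *Sox17* (-0.11) on the lower side and *Prox1* (0.24) and *Neurod1* (0.95), which neurons also use, on the higher. The part of these tissues in the level of each factor was not tested.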

How the data were processed

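Sequenced RNA of 6 male embryos at E9.5 was analysed. Per the labels, reads were aligned to mm10 with TopHat2 2.0.6 and Bowtie2 2.0.2, and Cufflinks and Cuffdiff 2.0.2 gave the authors' deposited FPKM values, 1 per genotype and locus, pooled over 3 embryos. The gene annotation release is not given in the sources used here. The sample names in the table end in M and P and were matched to genotypes through the study's own copy of the table. The authors' own fold changes, test statistics, p-values and q-values were not used.

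Log2 ratios of mutant over wildtype were computed with a pseudocount of 0.1 FPKM. Counts and medians used loci that averaged 1 FPKM or more and thresholds of 1.5-fold and, in the text, of 25% higher or 20% lower. Each factor was placed among loci within 2-fold of its mean. The gene lists covered class I, class II and alar plate members (*Pax3* and *Pax7*), floor plate, roof plate, hedgehog response, dorsal and other ventral progenitor factors, neural progenitor, ventral and dorsal neuron factors, neuron, neural crest, dermomyotome, eye and forebrain, pancreas and foregut genes, and paralogs of the members. The members and lists were chosen with earlier results of these data known. Genes named were all members, and the 2 highest and 2 lowest of each list, with further genes of known domain named after their values were seen. Some genes that this rule names are not reported here. Some genes are in more than 1 list. Alternatives were other pseudocounts, filters, thresholds and scalings, and steps were tested on simulated data. Python 3.11.15, numpy 2.4.6, pandas 2.3.3 and matplotlib 3.10.9 were used.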

Additional observations from a re-analysis of the deposited data

How the results depend on the processing

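With 1 pooled value per genotype, embryos could not be left out in turn. No paired analysis was possible because the table has no value per embryo and the labels number no pairs. Of 60 alternatives for the counts, the median and the class difference, 53 stayed within 1.5 times the count or within 0.1 on the log2 scale. Some of these could not move. A shift of all ratios by the same amount cancels in the class difference, and a stricter threshold cannot raise a count. A threshold of 25% higher in place of 1.5-fold gave 2 factors (*Dbx1* and *Pax7*), and relative to *Sox1*, *Sox2* and *Sox3* the median of the factors was 0.038 and 1 factor was at least 25% higher (*Pax7*). Relative to the median of the 11 neural progenitor genes, the median of the factors was -0.26, 1 factor was at least 1.5-fold lower (*Nkx6-2*), 0 were at least 25% higher and 4 at least 20% lower. That reference, the alternatives to the counts at 25% and 20%, and leaving out the 3 factors at shared loci were chosen after seeing the data. The class difference lay between 0.11 and 0.18. Of 70 alternatives for single factors, 48 stayed within 0.1, 14 moved further with the same sign and 8 changed sign. *Nkx6-1* changed sign relative to the Sox genes (-0.046) and *Irx3* after rescaling to the same total FPKM (0.017). Relative to the progenitor genes, *Nkx2-2* (-0.19), *Olig2* (-0.26), *Nkx6-1* (-0.35), *Dbx1* (-0.011), *Dbx2* (-0.27) and *Pax3* (-0.24) did. *Pax7* stayed between 0.10 and 0.57. Low levels limit *Dbx2* and *Nkx2-2* most.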

Other observations

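Paralogs outside the set were also read. Of 20 such genes of the Pax, Nkx, Irx and Olig families, 15 averaged 1 FPKM or more, of which 5 were higher and 10 lower in mutant embryos, with a median log2 ratio of -0.09. Of all 12463 loci at such levels, 51.8% were lower. The lowest were *Nkx2-6*, a pharyngeal and heart gene, at 1.73 FPKM in mutant against 2.97 FPKM in wildtype embryos (log2 ratio -0.75), and *Pax8* (-0.57). The highest were *Irx4* (0.21) and *Olig3*, a factor of the most dorsal progenitors, at 7.86 and 5.33 FPKM (0.55). One gene, *Nkx2-6*, was past 1.5-fold lower and none was past 1.5-fold higher. The alar plate pair, *Pax3* and *Pax7*, held 17.5% of the summed FPKM of the 10 factors in mutant and 15.5% in wildtype embryos.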
